A study of Mus musculus with 20 samples.

Results

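Of 38018 autosomal tiles of 100 bp that could be read in all 20 libraries of a mouse zygote study, 1635 (4.30%) were methylated in both gametes, with a mean level of 75% or more in the sperm libraries and 75% or more in the oocyte libraries. These tiles are called members here. A tile was read in a library where at least 2 of its positions had 5 or more reads and the tile held at least 10 calls, and its level is the share of calls that were methylated. The gamete values chose the members, so each difference from a gamete is a description without a test. Because a member started high in both parental genomes and was read in all libraries, the paternal and the maternal genome of the zygote can be compared on identical tiles.

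The assay was reduced representation bisulfite sequencing (RRBS), in which genomic DNA is cut with MspI at CCGG sites and short, CpG-rich fragments are converted and sequenced. The 10 groups held 2 libraries each: sperm, oocytes, and paternal or maternal pronuclei from WT or CKO zygotes, cultured as mock or with aphidicolin. The CKO females carried Zp3-Cre and were f/-, the WT females were f/f, and the females of both were 7 to 10 weeks old. Zp3-Cre acts in the growing oocyte, so CKO zygotes come from oocytes without the floxed gene, Tet3 by the series title, and the files hold no value that checks the deletion. All zygotes were fertilised with C57BL/6J sperm. Aphidicolin, an inhibitor of replicative DNA polymerases, was given at 3 µg/ml from 5 hours post-fertilisation, pronuclei were isolated at 12 hours, and material was frozen at 13 hours. The parental pronuclei were told apart by their size and by their distance from the second polar body. Libraries typically held about 20 pronuclei and took 21 PCR cycles, and sperm and oocytes are labelled WT and mock.

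In the mouse zygote the parental genomes lie in separate pronuclei until the first mitosis, and both lose methylation after fertilisation. TET3, the oxidase stored in the oocyte, converts 5-methylcytosine to 5-hydroxymethylcytosine and further products, and is known to act most visibly on the paternal genome. Replication without maintenance by DNMT1 leaves the new strand unmethylated and so dilutes the mark. Bisulfite sequencing reads 5-methylcytosine and 5-hydroxymethylcytosine alike as methylated, so the levels below are the sum of both.

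The libraries held 22431861 to 68056783 calls, and the median member had 70 to 294 calls per library, the lowest in replicate 1 of the WT aphidicolin paternal group. Calls come from PCR copies of few pronuclei and are not independent molecules, so counting intervals would understate the error and the spread between libraries is given instead. The labels name no separate animals or cultures for the replicates, and leave unsaid whether paternal and maternal libraries shared zygotes. The p-values therefore measure the spread between these libraries. Shared zygotes would make the paternal and maternal strata dependent. Treatment or genotype p-values over strata of both parents would then be too small, and tests between parents would ignore a pairing. Since 2 libraries against 2 allow no exact p below 0.333, means were tested by permutation within strata.

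Parental origin was checked on tiles at 75% or more in a single gamete, with 25% or less in its counterpart. The 1084 tiles methylated in oocytes only had mean levels of 11.5% and 4.63% in the CKO mock paternal replicates 1 and 2. The CKO aphidicolin paternal replicates had 10.6% and 4.88%, against 3.33% to 4.89% in the WT paternal libraries and 2.82% and 2.91% in sperm. The 2345 tiles methylated in sperm only had 9.73% and 11.3% in the CKO mock maternal libraries and 4.20% and 4.30% in the WT mock maternal libraries. With aphidicolin the maternal libraries had 9.68% and 6.27% on these tiles in CKO and 6.00% and 5.30% in WT. On oocyte-only tiles they had 84.2% and 91.6% in CKO and 91.6% and 92.7% in WT. Replicate 1 of both CKO paternal groups and both CKO mock maternal libraries thus stood apart on the tiles of the other parent. So did replicate 1 of the CKO aphidicolin maternal group. Chromosomes are sorted by name in the mock pronuclear files and unsorted in the aphidicolin and gamete files. Treatment, like the step from gamete to zygote, therefore cannot be told apart from how the libraries were prepared or processed.

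In both gametes the members were close to fully methylated. Their mean level was 96.0% and 96.1% in the sperm libraries and 96.2% and 96.4% in the oocyte libraries. By the time of isolation, WT mock paternal pronuclei stood at 52.3% and 55.7%, or 54.0% ± 2.38 (SD, n = 2), a difference from sperm of -42.1 points. WT mock maternal pronuclei stood at 82.3% and 85.2%, or 83.8% ± 2.02 (SD, n = 2), a difference from oocytes of -12.5 points. CKO mock pronuclei stood at 70.0% and 68.6% in the paternal genome and at 82.3% and 84.5% in the maternal genome. All 8 aphidicolin libraries lay between 92.1% and 96.0%. The plot of member means by library shows both gametes and all aphidicolin libraries near the top, the mock maternal libraries below them, and the mock paternal libraries lowest.

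**Figure D1:**
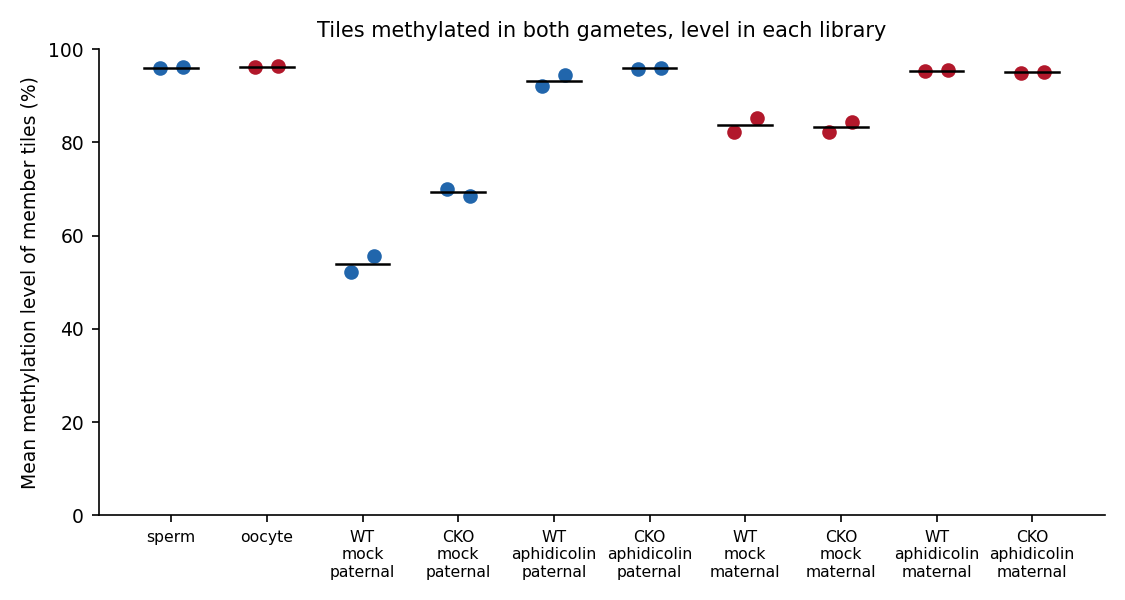
Mean methylation level (%) of the 1635 member tiles in each of the 20 libraries, by group; points are libraries, black lines the means of 2, blue sperm and paternal, red oocyte and maternal. The WT mock paternal libraries, at 52.3% and 55.7%, are the lowest, and the aphidicolin libraries lie between 92.1% and 96.0%.

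The first question was how the 2 parental genomes compare on the same tiles. In WT mock zygotes the paternal mean minus the maternal mean was -29.8 points, and the 4 differences between single libraries ran from -32.9 to -26.7. In CKO mock zygotes it was -14.1 points, with a range from -15.9 to -12.3. Over both genotypes the mock paternal libraries differed from the maternal ones by -21.9 points (exact two-sided permutation p = 0.0556, the smallest that 36 arrangements allow, adjusted p = 0.111 over 14 tests by Benjamini-Hochberg). With aphidicolin the difference was -0.64 points (exact permutation p = 0.611, adjusted p = 0.658), and the single differences ran from -3.42 to -0.854 in WT and from 0.607 to 1.12 in CKO. Over all 4 strata of genotype and treatment the difference was -11.3 points (exact permutation p = 0.0170, adjusted p = 0.111). No difference between the parents passed the adjusted threshold of 0.05, which tests of 36 arrangements cannot reach. The groups did not overlap in the mock libraries.

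Most single members followed that order. In WT mock zygotes 959 members had both paternal libraries below both maternal libraries, 58.7% of members, against 11.2% of all tiles, and 79 members had them above, 4.83%, against 11.3%. In CKO mock zygotes 783 members lay below, 47.9%, against 10.9% of all tiles, and 98 lay above, 5.99%, against 15.1%. Most of the tiles in the series are unmethylated in both gametes and have little room to fall, so these shares of all tiles give the background of the table and not that of methylated tiles. By group means, the paternal level was the lower in 1380 members (84.4%) in WT and in 1300 (79.5%) in CKO. In WT, 577 members (35.3%) had a paternal mean under 50% beside a maternal mean of at least 75%. In CKO, 128 members (7.83%) did. Few members went the other way, with 18 in WT and 11 in CKO under 50% in the maternal and at least 75% in the paternal genome. Members at 75% or more in both genomes numbered 306 in WT and 519 in CKO.

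**Figure D2:**
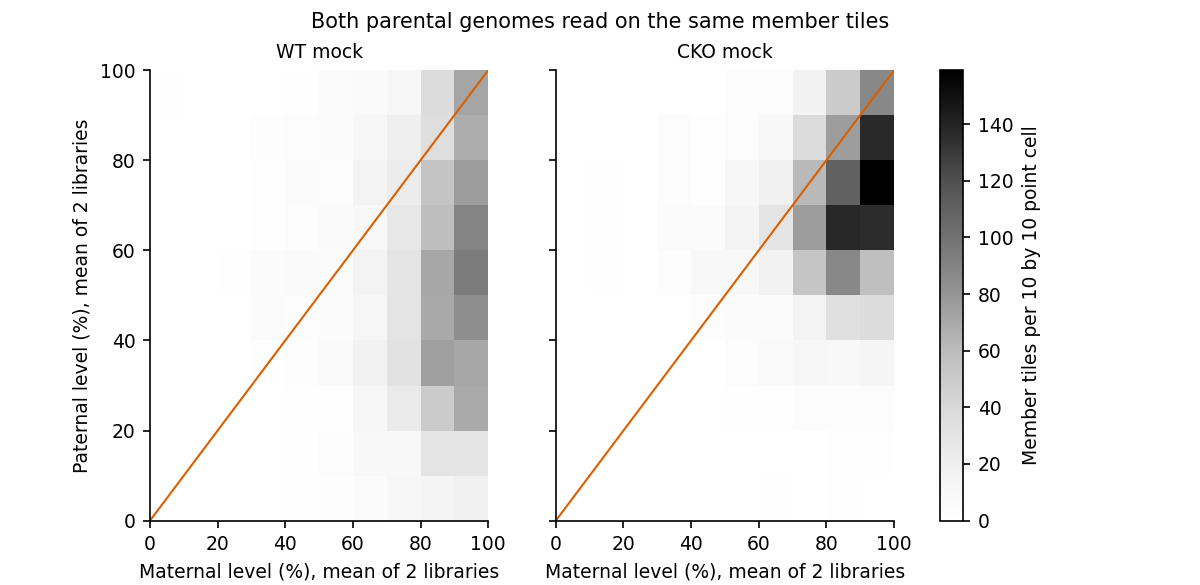
Number of member tiles (grey scale) by their maternal level (%, x axis) and paternal level (%, y axis), each the mean of 2 libraries, in cells of 10 by 10 points for WT mock and CKO mock; the line marks equal levels. WT tiles spread along the whole paternal axis at high maternal levels, and CKO tiles gather at a paternal level of about 60% to 90%.

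Under mock, members differed more from each other in the paternal than in the maternal libraries. Across members the SD of the level was 35.7 and 26.9 points in the WT mock paternal libraries, 19.8 and 21.2 in the CKO mock paternal libraries, and 16.0 to 19.7 in the 4 mock maternal libraries. In WT mock paternal replicate 1, 27.2% of members were at 25% or below and 31.4% at 75% or above. In replicate 2 these shares were 14.7% and 25.1%. The replicates of that group thus differed in shape: replicate 1 had 19.7% of members at 5% or below and 21.0% at 95% or above, and replicate 2 had 5.99% and 8.56%. Replicate 1 had a median of 154 calls per member and replicate 2 had 250. The part of depth in the shape was not tested. In the CKO mock paternal libraries 2.87% and 3.67% of members were at 25% or below. With aphidicolin the SD was 10.5 to 16.1 points in the paternal and 13.0 to 14.1 in the maternal libraries, and these ranges overlapped.

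**Figure D3:**
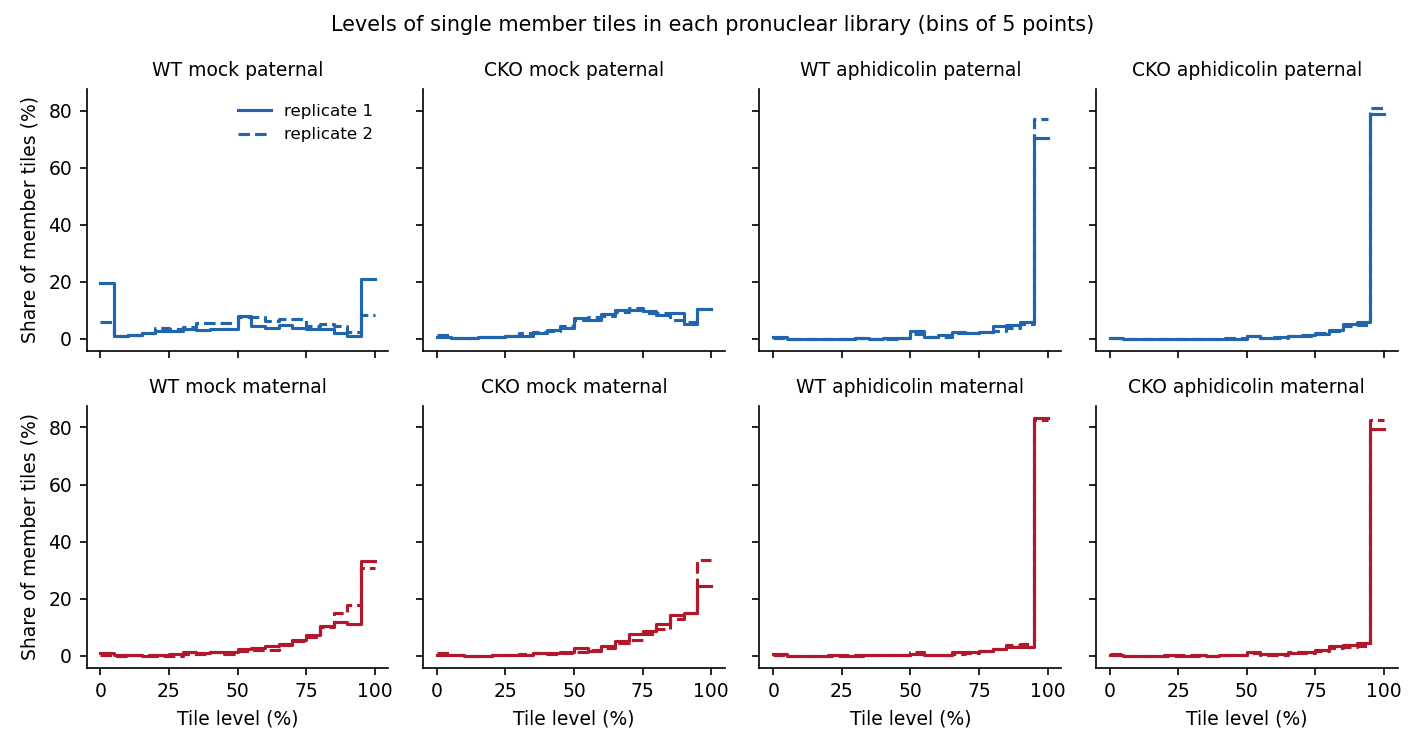
Share of member tiles (%, y axis) by level (%, x axis, bins of 5 points) in each pronuclear library, solid for replicate 1 and dashed for replicate 2, paternal in blue and maternal in red. WT mock paternal levels span the whole range with 14.7% and 27.2% of members at 25% or below, and 70.2% or more of members are at 95% or above in each aphidicolin library.

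The second question was what aphidicolin did to the members. In WT paternal pronuclei the level was 92.1% and 94.4% with aphidicolin, a mean 39.3 points above mock, with single differences from 36.4 to 42.1. In CKO paternal pronuclei it was 95.8% and 96.0%, which is 26.6 points above mock, with a range from 25.8 to 27.4. In maternal pronuclei it was 95.3% and 95.5% in WT and 94.9% and 95.2% in CKO, 11.7 and 11.6 points above mock. Over all 4 strata the members were 22.3 points higher with aphidicolin, higher in each of the 4 strata (exact permutation p = 0.00154, the smallest of 1296 arrangements, adjusted p = 0.0216). Labels were exchanged separately in the paternal and maternal strata, so shared zygotes would make that p too small. The paternal strata alone gave 32.9 points and the maternal strata alone 11.7 points (exact permutation p = 0.0556 each, the smallest of 36 arrangements, adjusted p = 0.111 each). The effect was 21.3 points larger in the paternal than in the maternal genome. That difference is given without a p, because exchanging the parents' labels tests for any parental difference and not for an equal effect. As stated above, file order differed with the treatment in every stratum, so the effect cannot be told apart from such a difference between files.

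By single tiles, 1096 members (67.0%) in the WT paternal genome had both aphidicolin libraries above both mock libraries, against 10.8% of all tiles. In the CKO paternal genome 1244 members (76.1%) did, against 11.6% of all tiles. In the maternal genome 832 members (50.9%) in WT and 838 (51.3%) in CKO did, against 6.95% and 6.75% of all tiles. The opposite order was found in 9, 7, 26 and 25 members, that is 0.550%, 0.428%, 1.59% and 1.53%, against 3.42%, 6.09%, 4.66% and 6.54% of all tiles. The 25th and 75th percentiles of the aphidicolin minus mock differences were 20.0 and 58.4 points in the WT paternal genome, and 15.3 and 37.0 points in the CKO paternal genome. Under aphidicolin 70.2% to 83.4% of members were at 95% or above in a library, compared with 81.7% and 80.5% in sperm and 76.2% and 76.5% in oocytes. Aphidicolin paternal minus sperm was -2.80 points in WT and -0.188 in CKO. Aphidicolin maternal minus oocyte was -0.855 points in WT and -1.25 in CKO. The median member nevertheless lay above its gamete. Its difference from sperm was 1.36 points in WT and 1.80 in CKO, and from oocytes 0.549 and 0.202. The negative means thus came from a tail of low members.

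The third question was the effect of maternal Tet3 loss. In mock paternal pronuclei the CKO mean was 69.3% ± 1.00 and the WT mean 54.0% ± 2.38 (SD, n = 2 each). They differed by 15.3 points, and single libraries by 12.9 to 17.7 points. With aphidicolin the CKO paternal mean was 2.61 points above WT, with a range from 1.34 to 3.88. Over both treatments the paternal difference was 8.96 points (exact permutation p = 0.0556, the smallest of 36 arrangements, adjusted p = 0.111). The groups did not overlap in either treatment, and the test missed the adjusted threshold. CKO mock paternal replicate 1 had 11.5% on oocyte-only tiles and a member mean of 70.0%. Replicate 2, with 4.63% on those tiles, had a member mean of 68.6%, also above both WT libraries. Without replicate 1 the difference over both treatments was 8.60 points. The aphidicolin effect was 12.7 points larger in WT than in CKO paternal pronuclei, and the single differences of WT, 36.4 to 42.1 points, did not overlap those of CKO, 25.8 to 27.4 points. Exchanging the genotype labels gave an exact permutation p of 0.333 (adjusted p = 0.424). That exchange tests for any difference between genotypes and not for an equal effect. The 12.7 points use the same mock libraries as the comparison of genotypes.

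In maternal pronuclei the CKO and WT mock means were 83.4% ± 1.52 and 83.8% ± 2.02 (SD, n = 2 each). Their difference was -0.386 points, with single differences from -2.89 to 2.12, which bounds what these libraries can show. With aphidicolin it was -0.391 points, from -0.662 to -0.121. Over both treatments the difference was -0.389 points (exact permutation p = 0.389, adjusted p = 0.454), and its sign turned to 0.149 without CKO mock maternal replicate 1 and to 0.324 without WT mock maternal replicate 2. On the tiles methylated in sperm only, the CKO mock maternal libraries were 6.25 points above WT. The part of that signal in the maternal members was not tested. Over all 4 strata the CKO minus WT difference was 4.28 points (exact permutation p = 0.0725, adjusted p = 0.127).

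By single tiles, 596 members (36.5%) had both CKO mock paternal libraries above both WT ones, against 10.1% of all tiles, and 118 (7.22%) had them below, against 4.09%. In the mock maternal genome 229 members (14.0%) lay above and 281 (17.2%) below, against 7.53% and 5.43% of all tiles. The 25th and 75th percentiles of the CKO minus WT differences were -1.19 and 32.0 points in the paternal and -7.93 and 7.52 points in the maternal.

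Tiles methylated in 1 gamete only served to ask whether the members behaved apart from other tiles methylated in the same parent. The 2345 sperm-only tiles had mean levels of 51.9% and 55.5% in the WT mock paternal libraries, against 52.3% and 55.7% for members. In the CKO mock paternal libraries they had 60.5% and 66.9%, against 70.0% and 68.6%. The CKO minus WT difference in paternal pronuclei was 4.14 points larger in members than in sperm-only tiles (exact permutation p = 0.111, adjusted p = 0.173). It ran from 2.20 without CKO mock paternal replicate 1 to 6.09 without replicate 2. The CKO aphidicolin paternal libraries had 88.5% and 95.0% on sperm-only tiles, against 95.8% and 96.0% for members. In both CKO paternal groups the lower sperm-only level was in replicate 1, which stood apart on oocyte-only tiles. The part of that signal in the 4.14 points was not tested. The aphidicolin effect in paternal pronuclei differed between the classes by -0.257 points (exact permutation p = 0.833, adjusted p = 0.833), with a sign that turned without CKO mock paternal replicate 1, at 1.69, and without CKO aphidicolin paternal replicate 2, at 1.32. In maternal pronuclei the aphidicolin effect was 2.28 points larger in members than in the 1084 oocyte-only tiles (exact permutation p = 0.222, adjusted p = 0.311), running from 0.505 without CKO aphidicolin maternal replicate 1 to 4.06 without replicate 2. Each of these 3 tests has 36 arrangements and a smallest p of 0.0556, so none could have passed the threshold.

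Which members were low or high was shared between libraries in part. Across the 1635 members the correlation between replicates was 0.25 in both mock paternal groups, 0.39 in WT and 0.33 in CKO mock maternal pronuclei, 0.38 in oocytes and 0.81 in sperm. Between WT and CKO mock libraries of the same parent it was 0.18 to 0.28 for paternal and 0.30 to 0.40 for maternal pronuclei. Between the parents it was -0.03 to 0.08 in WT and 0.09 to 0.14 in CKO. These values are descriptions across tiles, which share library, depth and base composition.

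Terciles of the members by level were therefore set in 1 library and read in the others. The highest and lowest terciles by WT mock paternal replicate 1 stood at 65.4% and 48.7% in replicate 2, a difference of 16.7 points, and terciles set in replicate 2 differed by 21.5 points in replicate 1. In the CKO mock paternal libraries the terciles set in WT replicate 1 differed by 9.24 and 8.72 points, and those set in replicate 2 by 12.4 and 13.2. In the WT mock maternal libraries the same terciles differed by -1.21 and -0.881 points, and by 2.18 and 2.69. In the WT aphidicolin paternal libraries they differed by 4.76 and 1.27 points, and by 6.03 and 3.19. The order seen in 1 WT mock paternal library thus recurred in the other mock paternal libraries, at a smaller size than in the library that set it, and the differences in the mock maternal libraries lay between -1.21 and 3.87 points. For terciles set in either WT mock maternal library, the highest lay above the lowest in each mock paternal library. The gap was smallest for terciles of replicate 1 in WT mock paternal replicate 1, at 53.2% and 51.8%. It was largest for those of replicate 2 in WT mock paternal replicate 2, at 59.9% and 52.9%.

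**Figure D4:**
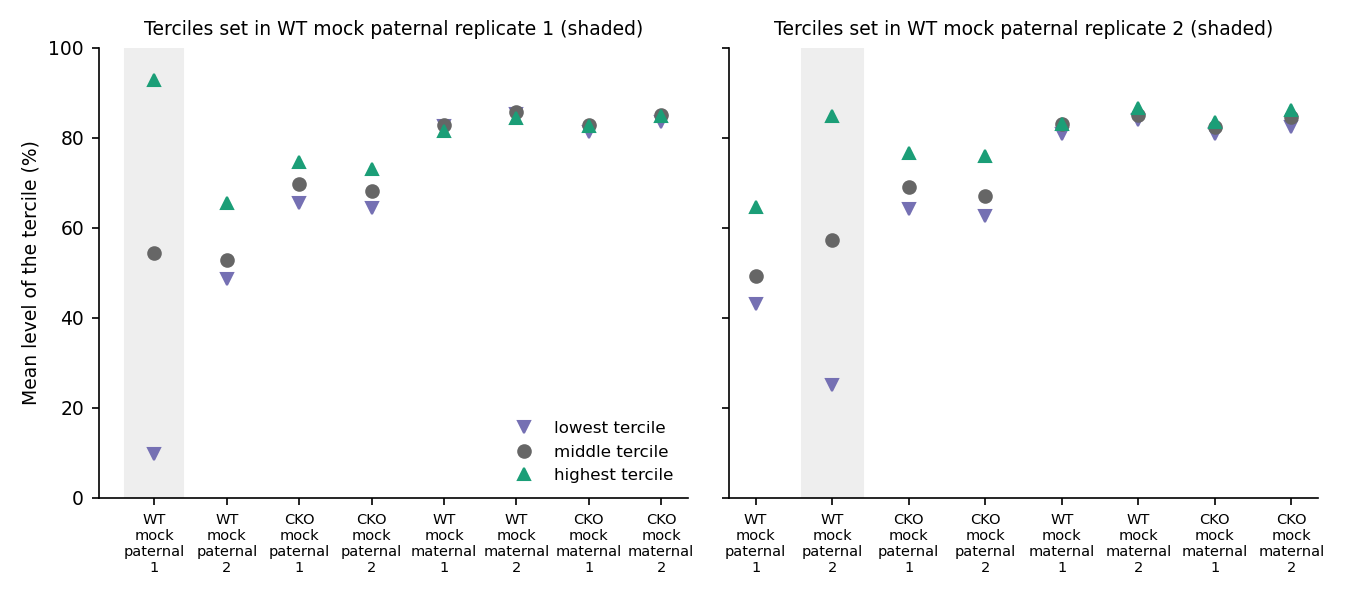
Mean level (%) in each mock pronuclear library of members split into terciles by their level in WT mock paternal replicate 1 (left) or replicate 2 (right); the shaded library set the terciles. The highest and lowest terciles are 16.7 and 21.5 points apart in the replicate that did not set them, and within 4 points of each other in the maternal libraries.

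Members at the ends of the WT paternal range were counted over both replicates. At 25% or below in both WT mock paternal libraries were 90 members (5.50%), whose CKO mock paternal means were 60.2% and 57.2%. At 75% or above in both were 216 members (13.2%), with 82.7% and 80.9% in CKO. Another 116 members were at 25% or below in 1 replicate and at 75% or above in the other. With aphidicolin the 90 low members stood at 85.4% and 90.6% in WT paternal pronuclei and the 216 high members at 96.4% and 96.6%. In WT mock maternal pronuclei they stood at 80.7% and 82.9%, and at 83.8% and 85.9%. These sets were chosen on the WT mock paternal values and carry no test.

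The members resembled the sperm-only tiles in spacing and density. A member held a median of 4 measured positions, against 8 over all tiles, 3 in sperm-only tiles, 7 in oocyte-only tiles and 9.5 in tiles unmethylated in both gametes. Of the members, 1487 (90.9%) had no measured tile within 500 bp, against 89.8% of sperm-only tiles, 49.4% of oocyte-only tiles and 33.4% of all tiles. Of the 148 that had one, 132 had another member there and 1 had a tile unmethylated in both gametes. By contrast 77.0% of the unmethylated tiles had another unmethylated tile within that distance. CpG islands, the dense and mostly unmethylated stretches at many gene starts, yield many MspI fragments side by side, while the members were mostly isolated tiles. The share of tiles that were members ran from 2.92% on chromosome 3 to 6.48% on chromosome 8. Only 2 members had over 10 times the median depth.

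Mean levels differed by at most 7.29 points between members with the fewest and the most measured positions. Members with 7 or more positions were 4.89 and 5.49 points above members with 2 in the WT mock maternal libraries and 6.74 and 7.29 points above in the CKO mock maternal libraries. In the CKO mock paternal libraries they were 5.06 and 4.80 points above, and in the WT mock paternal libraries 2.46 and 0.00482 points above. In the 4 aphidicolin paternal libraries the difference ran from -1.77 to -0.771 points, and in sperm it was -1.33 and -0.902 points.

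**Figure D5:**
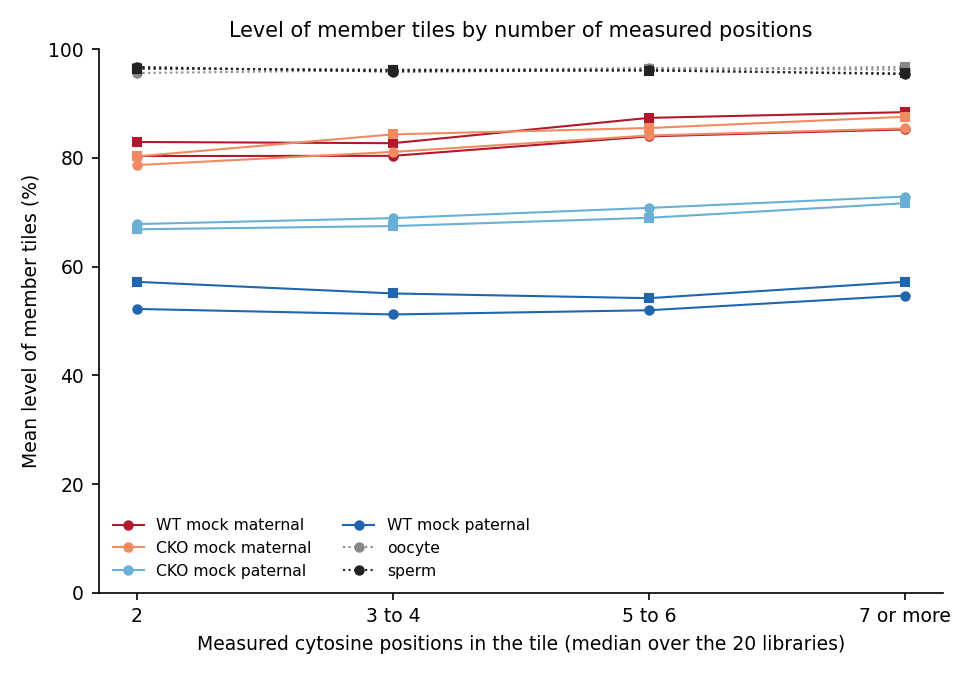
Mean level (%, y axis) of member tiles by the number of measured cytosine positions in the tile (x axis, median over libraries), in mock pronuclei and gametes; circles are replicate 1 and squares replicate 2. At 7 or more positions the mock maternal lines are 4.89 to 7.29 points higher than at 2, and the WT mock paternal lines 2.46 and 0.00482 points higher.

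Single tiles were then tested with a quasi-binomial model fitted to all 38018 tiles, and tiles were called where the Benjamini-Hochberg adjusted p was below 0.05 and the groups differed by 10 points or more. A single tile carried little information in this model. The median dispersion over members was 52.5, so that a median member carried the information of about 4.38 independent calls per library. In simulated data for the WT paternal comparison of aphidicolin with mock, over 38018 tiles, the model called 0%, 0%, 2% and 4% of 50 tiles changed by 20, 40, 60 and 80 points. At an unadjusted p under 0.05 it found 12%, 30%, 68% and 86% of them. The simulation left 37818 tiles unchanged, which makes the adjustment harsher than where many tiles differ, and the refitted dispersion was 61.1. Its shares therefore do not give the power in the data. With so few independent calls per tile, a low count of called tiles is no measure of how many members differed.

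Between the parents, 198 members were called lower and 4 higher in the WT paternal than the WT maternal genome under mock, 12.1% and 0.245% of members, against 3.98% and 3.69% of all tiles. Without 1 library the calls in either direction fell from 202 to 58 and 68 without WT mock maternal replicates 1 and 2, and to 95 and 105 without WT mock paternal replicates 1 and 2. In CKO mock pronuclei 30 members were lower and 3 higher, 1.83% and 0.183%, against 3.08% and 3.60% of all tiles. These 33 calls fell to 7 and 2 without CKO mock maternal replicates 1 and 2, and to 14 and 4 without CKO mock paternal replicates 1 and 2. Limma on arcsine square roots called 320 members in WT, 313 of them lower, which is 19.6% of members against 7.45% of all tiles called in either direction. In CKO it called 50, 47 of them lower, which is 3.06% against 5.24%. The first WT region of neighbouring called members was chromosome 4, 132864601 to 132864800 (mm9, as are all positions here). There 2 tiles stood at 6.18% and 15.9% in the WT mock paternal libraries and at 89.3% and 87.1% in the maternal ones (highest adjusted p = 0.00182, quasi-binomial model). The CKO mock paternal libraries had 66.0% and 74.8% there, and the sperm libraries 97.2% and 96.8%. The next region was chromosome 6, 83142401 to 83142600, with 13.6% and 33.2% against 95.7% and 91.2% (highest adjusted p = 0.0146, quasi-binomial model). At chromosome 5, 113611101 to 113611300, the paternal libraries had 35.6% and 24.2% and the maternal ones 89.9% and 96.3% (highest adjusted p = 0.0298, quasi-binomial model), and there the WT aphidicolin paternal libraries had 57.2% and 68.0%, below the sperm libraries at 81.5% and 90.6%. Regions were named only where the paternal and maternal libraries did not overlap, so the absence of overlap is no result.

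In CKO mock pronuclei no called members were neighbours, and the first single tiles lay on chromosome 13, 62969301 to 62969400, chromosome 9, 110541001 to 110541100, and chromosome 7, 52676801 to 52676900. The chromosome 13 tile had 15.0% and 19.6% in the CKO paternal libraries and 90.8% and 84.5% in the maternal ones (adjusted p = 0.0306, quasi-binomial model), while the WT mock paternal libraries had 50.0% and 63.6%. The chromosome 9 tile had 50.0% and 8.60% against 100% and 89.3% (adjusted p = 0.0132, quasi-binomial model). The chromosome 7 tile had 40.7% and 29.0% against 100% in both maternal libraries (adjusted p = 0.0317, quasi-binomial model). Each of the 3 tiles had a CKO paternal mean below its WT paternal mean, the reverse of the member mean. They were ranked by their CKO difference, which favours low CKO paternal values.

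For aphidicolin in the WT paternal genome, 22 members were called higher and 0 lower, 1.35% and 0% of members, against 0.132% and 0% of all tiles. The count of 22 fell to 8 and 0 without WT aphidicolin paternal replicates 1 and 2, and to 7 without WT mock paternal replicate 1. At an unadjusted p under 0.05, 634 members were higher and 2 lower, together 38.9% of members against 5.37% of all tiles. Limma on arcsine square roots called 371, all higher, 22.7% of members against 2.45% of all tiles called in either direction. The first tile, chromosome 8, 91188201 to 91188300, was at 0% in both WT mock paternal libraries and at 100% in both aphidicolin libraries (adjusted p = 0.00772, quasi-binomial model). Its 244 and 47 mock calls allow a level of up to 1.23% and 6.38% by 3 counts, for counting error only. Since calls are PCR copies and not independent, these limits and those of the next tiles are too low. The CKO mock paternal libraries had 88.1% and 23.6% there. The tile at chromosome 5, 114341001 to 114341100, was also at 0% in both WT mock libraries, where 238 and 315 calls allow up to 1.26% and 0.952%, and at 93.1% and 100% with aphidicolin (adjusted p = 0.0329, quasi-binomial model). The tile at chromosome 15, 8213001 to 8213100, had 0% and 16.9% against 100% in both (adjusted p = 0.0478, quasi-binomial model), and its 146 calls in replicate 1 allow up to 2.05%. In CKO mock paternal pronuclei the last pair of tiles stood at 51.2% and 66.4%, and at 59.0% and 57.1%.

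Calls by the quasi-binomial model were rare in the other comparisons. In the CKO paternal genome aphidicolin gave 1 called member (0.0612%, against 0.0237% of all tiles), at chromosome 5, 66715001 to 66715100, with 65.5% and 49.5% under mock and 100% in both aphidicolin libraries (adjusted p = 0.0246, quasi-binomial model). At an unadjusted p under 0.05, 602 members were higher and 0 lower in that comparison, 36.8% of members against 5.09% of all tiles. Limma on arcsine square roots called 109, 6.67% against 0.923% of all tiles. In the mock paternal genome 1 member was higher in CKO than in WT (0.0612%, against 0.0473% of all tiles), a share near the background. It lay at chromosome 4, 140278101 to 140278200, with 12.6% and 2.16% in WT and 72.4% and 71.4% in CKO (adjusted p = 0.0348, quasi-binomial model). That tile had 33.3% and 66.7% in the WT aphidicolin paternal libraries, well below their member means, and 95.2% and 100% in the CKO ones. Between CKO and WT mock paternal libraries, 159 members were higher and 4 lower at an unadjusted p under 0.05. Together they were 9.97% of members against 1.96% of all tiles. Limma on arcsine square roots called 25 there, 1.53% against 0.271% of all tiles. None of these 11 named sites kept its call with every single library left out. The losses were 4 of 4 libraries at 6 sites, 3 of 4 at 3 sites and 2 of 4 at 2 sites. The direction could not change, because sites were named only where the compared libraries did not overlap. In the maternal genome the model called 0 members for aphidicolin in WT, against 0.0289% of all tiles higher and 0.00263% lower, with 110 members at an unadjusted p under 0.05, 6.73% against 1.71% of all tiles. Limma on arcsine square roots called 14, 0.856% against 0.195% of all tiles. For CKO against WT it called 0 members, against 0.00263% higher and 0.00526% lower, with 38 at an unadjusted p under 0.05, 2.32% against 1.43% of all tiles. Limma called 3, 0.183% against 0.153% of all tiles, a share near the background.

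Runs of members were few: 1503 stood alone, 60 regions joined 2 tiles and 4 regions joined 3. The region at chromosome 3, 61962701 to 61963000, kept 78.3% and 71.8% in WT mock paternal pronuclei and 73.0% and 81.8% in CKO, while the CKO mock maternal libraries had 67.4% and 83.6% and the WT ones 95.6% and 89.7%. The region at chromosome 14, 8957801 to 8958300, had 40.6% and 48.9% in WT and 77.9% and 69.6% in CKO mock paternal pronuclei, and 81.5% and 87.3% in WT mock maternal pronuclei. The region at chromosome 7, 52262601 to 52263100, differed between WT mock paternal replicates, at 35.8% and 79.0%, with 84.5% and 74.4% in CKO. The region at chromosome 5, 143648501 to 143648800, had 74.6% and 57.9% in WT and 74.5% and 84.7% in CKO mock paternal pronuclei. The WT and CKO mock paternal libraries overlapped in the regions on chromosomes 3, 5 and 7 and did not in the region on chromosome 14.

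Just inside the threshold were 80 members with 75% to 80% in at least 1 gamete, and just outside were 79 tiles at 70% or more in both and under 75% in at least 1. Their WT mock paternal means were 53.5% and 55.7% and their CKO mock paternal means 65.0% and 65.0%. Their WT mock maternal means were 71.1% and 65.5%, below the 83.8% of all members.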

How the data were processed

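The labels gave the groups and replicate numbers. Per the submitters' processing notes the authors used Trim Galore and Bismark 0.10.1 with mm9. The deposited files, which have no header, give per position a count of methylated and of unmethylated calls and a percent, without normalisation; removal of duplicates is not given in the sources used here. Counts were summed over 100-bp tiles (Python 3.11.15, numpy 2.4.6). Mean levels were tested by exact two-sided permutation within strata, with Benjamini-Hochberg adjustment over 14 tests. Of these, the comparison of the aphidicolin effect between the parents is reported without a p. Tiles were tested in R 4.3.3 with a quasi-binomial model over the 16 pronuclear libraries, its dispersion taken from groups expecting at least 5 calls of both kinds, shrunk with limma 3.58.1 and floored at 1. That form followed earlier work on these data in which call counts were in view. It was tested on simulated data for the WT paternal aphidicolin comparison over 38018 tiles: 0 of 37818 unchanged tiles were called, and 0.867% had an unadjusted p under 0.05. The members, lists and tests were all chosen with earlier results of these data known.

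Members less than 500 bp apart with no other measured tile between were joined, and regions of at least 3 were named. For each tile comparison the first 3 regions of at least 2 called members without overlap, ranked by difference, were named, or else the first 3 single tiles. Alternatives were a gamete threshold of 90%, 10 reads per position, tiles of 1000 bp, tiles weighted by calls, tiles over 10 times the median depth left out, other dispersion settings, limma, a replicate block and each library left out. No mm9 genome or annotation was used here, so sites carry no gene names and no sequence. No pair of libraries shared over 90% of its tile counts (0 pairs).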

Additional observations from a re-analysis of the deposited data

How the results depend on the processing

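The aphidicolin difference over 4 strata, 22.3 points, had an adjusted p of 0.0216 whichever library was left out (21.9 to 22.7 points). With the replicate number as a block it was again 22.3 points, with p = 0.00781 by exact permutation and an adjusted p of 0.109. That p is the smallest the block allows. Across tiles, same-numbered libraries did not deviate together (28 pairs of groups, correlations from -0.040 to 0.082). These correlations leave out shifts of a whole library, so they cannot tell whether the replicate numbers pair the library means. Replicate 2 had the higher member mean in each pronuclear group except CKO mock paternal, at 70.0% and 68.6%. There were 2 mean differences that turned sign: members minus sperm-only tiles for aphidicolin in paternal pronuclei, at 0.172 in tiles of 1000 bp and between -2.20 and 1.69 with a library left out, and CKO minus WT in maternal pronuclei, between -1.10 and 0.324. Beside these 2 and the block, the means kept their direction and their side of the threshold in the alternatives run, but tests within a single parent or treatment could not pass the threshold at all.

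Counts of called members moved far, in this order: WT aphidicolin paternal (22), WT aphidicolin maternal (0), CKO aphidicolin paternal (1), CKO against WT mock paternal (1) and maternal (0), paternal against maternal in WT (202) and CKO (33). Tiles of 1000 bp, with 4645 members of 40137, gave 946, 12, 907, 15, 1, 1442 and 511. Limma on arcsine square roots gave 371, 14, 109, 25, 3, 320 and 50. These were 22.7%, 0.856%, 6.67%, 1.53%, 0.183%, 19.6% and 3.06% of members. The limma shares of all tiles were 2.45%, 0.195%, 0.923%, 0.271%, 0.153%, 7.45% and 5.24%. For the tiles of 1000 bp and the settings below no share of all tiles was taken, so those counts have no background beside them. The replicate block lowered the counts of 22, 1, 1, 202 and 33 to 5, 0, 0, 105 and 6. Fitting only the libraries compared gave 6, 0 and 0 for the first 3 paternal counts, and 10 reads per position gave 6 for CKO aphidicolin paternal. With 1 library left out the counts ran from 0 to 22, 0 to 0, 0 to 1, 0 to 1, 0 to 0, 58 to 204 and 2 to 35. The direction of the paternal aphidicolin calls was upward in each of these fits. The cause was not tested. Few independent calls per tile limit single tiles, and 2 libraries per group limit the means.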

Other observations

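Members were also divided by their gamete level. The 109 members at 75% to 85% in oocytes stood at 65.0% and 63.7% in WT mock maternal pronuclei, and the 1287 members at 95% or more at 84.4% and 87.5%. The 73 members at 75% to 85% in sperm stood at 46.3% and 48.4% in WT mock paternal pronuclei, and the 1365 at 95% or more at 52.1% and 55.8%. These classes use the values that chose the members and carry no test.

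The 132 members with another member within 500 bp had 86.0% and 89.7% in the WT mock maternal libraries, against 82.3% and 85.2% over all members, and 54.6% and 55.2% in the WT mock paternal libraries. Over 68 neighbouring pairs the median difference between both tiles of a pair was 21.1 and 12.6 points in the WT mock paternal libraries, 8.96 and 8.47 in the CKO mock paternal libraries and 0 in each aphidicolin maternal library. By chromosome, the member mean ran from 49.8% on chromosome 3 to 56.9% on chromosome 6 in WT mock paternal pronuclei, and from 76.4% on chromosome 16 to 87.0% on chromosome 5 in WT mock maternal pronuclei.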
